A study of Homo sapiens with 36 samples.

Results

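SCAF4 and SCAF8 are related RNA-binding proteins that recognize the phosphorylated C-terminal domain of RNA polymerase II and travel with it along genes. Their RNA contacts in 10 genes of chromatin remodeling factors are described here: 7 of the CHD family (CHD1, CHD2, CHD4, CHD6, CHD7, CHD8 and CHD9) and 3 of the SWI/SNF family (SMARCA4, SMARCC1 and ARID1A). The genes were given as a list of names, and a cluster was taken as theirs where its midpoint lay on the strand and within the body of the gene in GENCODE 44 on GRCh38. They are 10 of 12714 genes that held a cluster in at least 1 list, and 798 of the 278185 clusters in all lists fell in them.

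The contacts were measured by PAR-CLIP, in which cells incorporate 4-thiouridine (4SU) into RNA and are irradiated at 365 nm, so that proteins become crosslinked to the labeled RNA they touch. All cells were Flp-In T-REx HEK293, a human embryonic kidney line with a single integration site for doxycycline-inducible genes. Of 3 lines, 1 carried inducible FLAG-SCAF4, another inducible FLAG-SCAF8, and the parental line carried no tagged protein. The labels name 100 ng/mL doxycycline for both tagged lines and no dose for the parental line, whereas the study's methods have all 3 lines treated with it, at another dose. All lines received 100 μM 4SU overnight and a further pulse of 500 μM for 2 h before irradiation at 2000 J/m2. From each line, FLAG IPs and inputs taken before the IP were sequenced in 3 replicates, from a soluble and a chromatin fraction, giving 36 samples. The deposited lists combine both fractions, which leaves 18 lists in 6 groups of 3: SCAF4 IP, SCAF8 IP, control IP and the 3 matching inputs. Endogenous SCAF4 and SCAF8 were not removed in any line as far as the labels tell, and the tagged proteins were expressed from an inducible promoter rather than their own.

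The lists differ in length. SCAF4 IP lists held 18991, 54404 and 33962 clusters and SCAF8 IP lists 25189, 18287 and 41502, whereas control IP lists held 9638, 2314 and 1621 and the 9 inputs between 4567 and 12493. The lists contain no reads, so read depth is unknown, and levels are given throughout as clusters per 10000 clusters of the list. A level therefore depends on how many clusters were called elsewhere, and in a control IP list of 1621 clusters a single cluster amounts to 6.17 per 10000. Replicate 1 was sequenced with longer reads, and its lists had median cluster lengths of 148 to 160 nt, compared with 125 to 146 nt in replicates 2 and 3. The study calls the replicates biological, and tests measure the spread between their lists.

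CHD proteins and SWI/SNF complexes use the energy of ATP hydrolysis to slide, evict or space nucleosomes. CHD1 and CHD2 form the first CHD subfamily, act on transcribed chromatin and have paired chromodomains at the N terminus. CHD4 belongs to the second subfamily and is the main ATPase of the NuRD deacetylase complex. CHD6, CHD7, CHD8 and CHD9 form the third subfamily, whose members carry BRK domains; CHD7 and CHD8 are best known as genes mutated in CHARGE syndrome and autism, respectively. SMARCA4 (BRG1) is an ATPase of the SWI/SNF complexes, SMARCC1 (BAF155) is one of their scaffold subunits, and ARID1A (BAF250A) is the DNA-binding subunit particular to the canonical BAF form. All 10 are long genes with many exons, and between 3.23% and 15% of each gene body is exon in the isoform used here.

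The clusters in these genes lay mostly over single exons, and 1 region of each of 9 genes is shown to make this visible. A region is the merged stretch of overlapping clusters of the 6 SCAF4 and SCAF8 IP lists. Shown is the region found in most IP lists among those left after removal of regions that overlapped more than 1 input or any control IP. Regions with more than a short stretch of untranslated exon bases were also left out of this choice. For CHD1, CHD4 and ARID1A no region survived the removal by input density described below, and their regions were chosen without that step, a choice made after the data were seen. Exon bases are in capitals and intron bases in lower case, on the transcribed strand of GRCh38. All exon bases shown are protein-coding, which the choice of regions favored.
The first subfamily is represented by chr5:98892536-98892708 on the minus strand in exon 15 of CHD1, in 5 IP lists, and by chr15:92985389-92985688 on the plus strand, the central 300 bases of a region of 327 bases at exon 26 of CHD2, in 6 IP lists and 1 input.
CHD1 exon 15: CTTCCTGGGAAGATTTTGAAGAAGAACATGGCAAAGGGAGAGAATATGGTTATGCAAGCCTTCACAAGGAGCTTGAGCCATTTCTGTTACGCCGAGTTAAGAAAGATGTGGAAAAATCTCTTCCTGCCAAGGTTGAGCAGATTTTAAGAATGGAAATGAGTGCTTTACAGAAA
CHD2 exon 26: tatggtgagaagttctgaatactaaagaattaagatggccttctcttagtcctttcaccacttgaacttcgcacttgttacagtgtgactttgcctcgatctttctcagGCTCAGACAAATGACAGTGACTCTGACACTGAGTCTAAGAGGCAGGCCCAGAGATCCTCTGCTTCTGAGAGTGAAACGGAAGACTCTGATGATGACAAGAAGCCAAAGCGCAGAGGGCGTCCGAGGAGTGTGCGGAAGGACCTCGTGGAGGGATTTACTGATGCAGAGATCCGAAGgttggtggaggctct
The CHD1 region lay wholly in its exon, whereas the CHD2 region took in all 176 bases of its exon and ran into the introns on both sides.

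The region of CHD4, chr12:6599749-6599947 on the minus strand, covered exon 10 in 5 IP lists and no control IP or input list.
CHD4 exon 10: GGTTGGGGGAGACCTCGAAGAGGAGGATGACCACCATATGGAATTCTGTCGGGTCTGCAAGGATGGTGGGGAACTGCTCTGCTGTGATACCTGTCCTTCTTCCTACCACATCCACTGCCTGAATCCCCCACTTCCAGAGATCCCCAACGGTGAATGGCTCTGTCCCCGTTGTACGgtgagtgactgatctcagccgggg
It held 175 exon bases and ended 24 bases into the intron that follows. In 11 of the 12 exonic regions of CHD4 seen in at least 2 IP lists, this one included, the exon belongs also to the readthrough gene ENSG00000285238 on the same strand, and clusters of the 2 genes cannot be told apart there.

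For the third subfamily, the regions were chr20:41533243-41533542 in exon 3 of CHD6 (minus strand, the central 300 of 307 bases, 5 IP lists), chr14:21415728-21415933 at exon 6 of CHD8 (minus strand, 5 IP lists) and chr16:53231655-53231803 at exon 10 of CHD9 (plus strand, 6 IP lists). Each of the 3 overlapped a cluster of 1 input and of no control IP.
CHD6 exon 3: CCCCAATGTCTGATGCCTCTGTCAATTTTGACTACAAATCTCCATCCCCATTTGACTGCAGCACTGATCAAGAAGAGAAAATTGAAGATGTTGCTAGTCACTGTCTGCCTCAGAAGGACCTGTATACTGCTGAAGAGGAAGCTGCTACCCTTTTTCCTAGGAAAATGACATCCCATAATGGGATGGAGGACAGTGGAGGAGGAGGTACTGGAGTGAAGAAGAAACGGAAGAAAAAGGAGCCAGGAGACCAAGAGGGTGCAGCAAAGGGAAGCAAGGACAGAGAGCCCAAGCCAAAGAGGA
CHD8 exon 6: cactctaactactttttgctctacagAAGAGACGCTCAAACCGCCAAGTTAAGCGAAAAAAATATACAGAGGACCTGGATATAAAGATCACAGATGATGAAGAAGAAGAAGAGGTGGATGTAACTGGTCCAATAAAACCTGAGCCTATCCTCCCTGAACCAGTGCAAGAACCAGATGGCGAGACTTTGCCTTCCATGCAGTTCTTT
CHD9 exon 10: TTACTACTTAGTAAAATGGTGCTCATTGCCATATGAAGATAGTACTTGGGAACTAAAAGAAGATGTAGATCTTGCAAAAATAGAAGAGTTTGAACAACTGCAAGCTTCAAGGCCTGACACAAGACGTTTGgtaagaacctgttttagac
The CHD8 region began 26 bases before its exon and the CHD9 region ended 19 bases after its exon, and the CHD6 region stayed inside an exon of 521 bases.

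For SWI/SNF, the regions were chr19:10994838-10995080 at exon 9 of SMARCA4 (plus strand, 4 IP lists), chr3:47781558-47781762 at exon 1 of SMARCC1 (minus strand, 4 IP lists) and chr1:26767773-26768035 at exon 11 of ARID1A (plus strand, 6 IP lists). None of the 3 overlapped a control IP or input cluster.
SMARCA4 exon 9: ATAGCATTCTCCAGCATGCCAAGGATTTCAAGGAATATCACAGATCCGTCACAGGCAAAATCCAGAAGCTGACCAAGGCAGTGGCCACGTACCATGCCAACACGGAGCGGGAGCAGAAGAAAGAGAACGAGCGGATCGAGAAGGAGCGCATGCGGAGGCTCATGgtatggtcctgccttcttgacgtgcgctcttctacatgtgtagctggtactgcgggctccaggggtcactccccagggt
SMARCC1 exon 1: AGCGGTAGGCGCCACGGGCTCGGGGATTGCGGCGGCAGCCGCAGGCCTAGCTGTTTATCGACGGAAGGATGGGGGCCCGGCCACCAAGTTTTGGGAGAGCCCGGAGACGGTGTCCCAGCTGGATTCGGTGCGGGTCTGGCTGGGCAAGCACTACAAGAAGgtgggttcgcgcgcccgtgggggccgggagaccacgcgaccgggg
ARID1A exon 11: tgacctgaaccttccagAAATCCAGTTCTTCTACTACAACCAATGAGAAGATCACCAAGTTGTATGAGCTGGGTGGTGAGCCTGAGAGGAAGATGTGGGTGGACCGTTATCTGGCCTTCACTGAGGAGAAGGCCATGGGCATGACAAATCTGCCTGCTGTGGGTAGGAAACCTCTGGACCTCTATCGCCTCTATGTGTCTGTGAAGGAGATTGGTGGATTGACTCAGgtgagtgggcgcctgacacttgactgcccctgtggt
All 210 bases of exon 11 of ARID1A were covered, and the SMARCA4 region held 79 intron bases.

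The first comparison asked whether clusters in these genes took a larger share of the 6 lists from tagged-protein IPs than of the 6 matching inputs. CHD7, SMARCA4 and CHD8 were higher in the IPs after adjustment over all genes, and no member was lower. CHD6, CHD1, CHD4, CHD9 and SMARCC1 passed only before adjustment. CHD2 and ARID1A, the members with the highest input levels, did not pass, and ARID1A was the only member with a lower mean in the IPs than in the inputs. Each gene was tested by an exact two-sided permutation test over lists, which for 6 against 6 cannot give a p below 0.00216, with Benjamini-Hochberg (BH) adjustment over 7525 genes.

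CHD7 had 1.05, 0.919 and 1.77 clusters per 10000 in the SCAF4 IP and 1.19, 0.547 and 1.21 in the SCAF8 IP. No cluster of CHD7 was present in any of the 6 inputs of the tagged lines, although 1 of the 3 control inputs held 1 cluster. The mean of the 6 IP levels was thus 1.11 ± 0.401 (SD, n = 6), against 0 in the inputs (exact permutation test, BH-adjusted p = 0.0204). A count of 0 among the 50137 clusters of the 6 inputs allows a level of up to 0.598 per 10000. The IP mean was 1.86-fold this limit. That ratio is not a lower bound, because the IP mean rests on 22 clusters whose counting error was left out. Limits of this kind cover only the counting error of the lists at 0.

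SMARCA4 had 2.63, 2.76 and 2.94 clusters per 10000 in the SCAF4 IP and 2.78, 1.09 and 2.41 in the SCAF8 IP. It had none in the SCAF4 inputs and 1.09, 1.93 and 0 in the SCAF8 inputs, so the groups overlapped through replicate 2 of SCAF8. The means were 2.44 ± 0.681 in the IPs and 0.504 ± 0.824 in the inputs (exact permutation test, BH-adjusted p = 0.0341).

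CHD8 had 2.63, 4.6 and 5.01 clusters per 10000 in the SCAF4 IP but only 0.794, 0.547 and 0.964 in the SCAF8 IP. Of its inputs, only replicate 1 of SCAF4 held a cluster, at a level of 0.854. The means were 2.42 ± 1.99 in the IPs and 0.142 ± 0.349 in the inputs (exact permutation test, BH-adjusted p = 0.0449), and most of this difference came from the SCAF4 lists.

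The 3 calls among 10 members stand beside 8.09% of all 7525 genes called higher in the IPs and 6.38% called lower. At an unadjusted p under 0.05, 8 of the 10 members were higher, against 22.1% of all genes, and the mean was higher in the IPs for 9 of 10 members, against 64% of all genes. These shares include genes with as few as 6 clusters over the lists compared, whereas the members held 22 to 125 in the IPs alone. Genes with like counts were not compared, and the members were chosen with earlier results of these data known. Only CHD7 had every IP list above every input, which held for 6.02% of all genes. When IP and input of the same extract were compared as pairs, no gene could pass, since 6 pairs allow no exact p below 0.03125 and the smallest BH-adjusted p was 0.159. Without any 1 replicate no member passed either, and 4 lists against 4 allow no exact p below 0.0286.

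Members that passed only before adjustment differed in where their inputs lay. CHD6 was even across the SCAF4 IP, with 2.11, 2.02 and 2.06 clusters per 10000, and across the SCAF8 IP with 2.38, 2.73 and 1.45. Its 6 inputs ranged from 0 to 2.19 with 3 of them at 0, and the means were 2.13 and 0.668 (exact permutation test, BH-adjusted p = 0.0604). CHD1 had means of 4.52 ± 1.38 in the IPs and 2.00 ± 1.65 in the inputs, and CHD4 had 2.49 ± 1.48 and 0.427 ± 1.05 (BH-adjusted p = 0.0796 for each, exact permutation tests). CHD4 was found in only 1 of the 6 inputs. CHD9, the largest of these genes, had means of 2.17 and 0.879, and SMARCC1 of 2.40 and 1.35 (exact permutation tests, BH-adjusted p = 0.103 and 0.126).

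CHD2 and ARID1A had the highest mean levels of the 10 genes both in the IPs and in the inputs. CHD2 had 4.21 to 6.02 clusters per 10000 over the 6 IP lists and 1.71 to 6.56 over the 6 inputs (means 5.23 and 3.92, exact permutation test, BH-adjusted p = 0.200). ARID1A had 5.16 to 7.54 in the IPs and 1.93 to 16.2 in the inputs (means 6.41 and 9.06, exact permutation test, BH-adjusted p = 0.436). The inputs of ARID1A differed between lines. Its SCAF4 inputs had 16.2, 13.7 and 10.4 clusters per 10000, its control inputs 19.2, 10.9 and 7.87, and its SCAF8 inputs 7.65, 1.93 and 4.44.

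**Figure D1:**
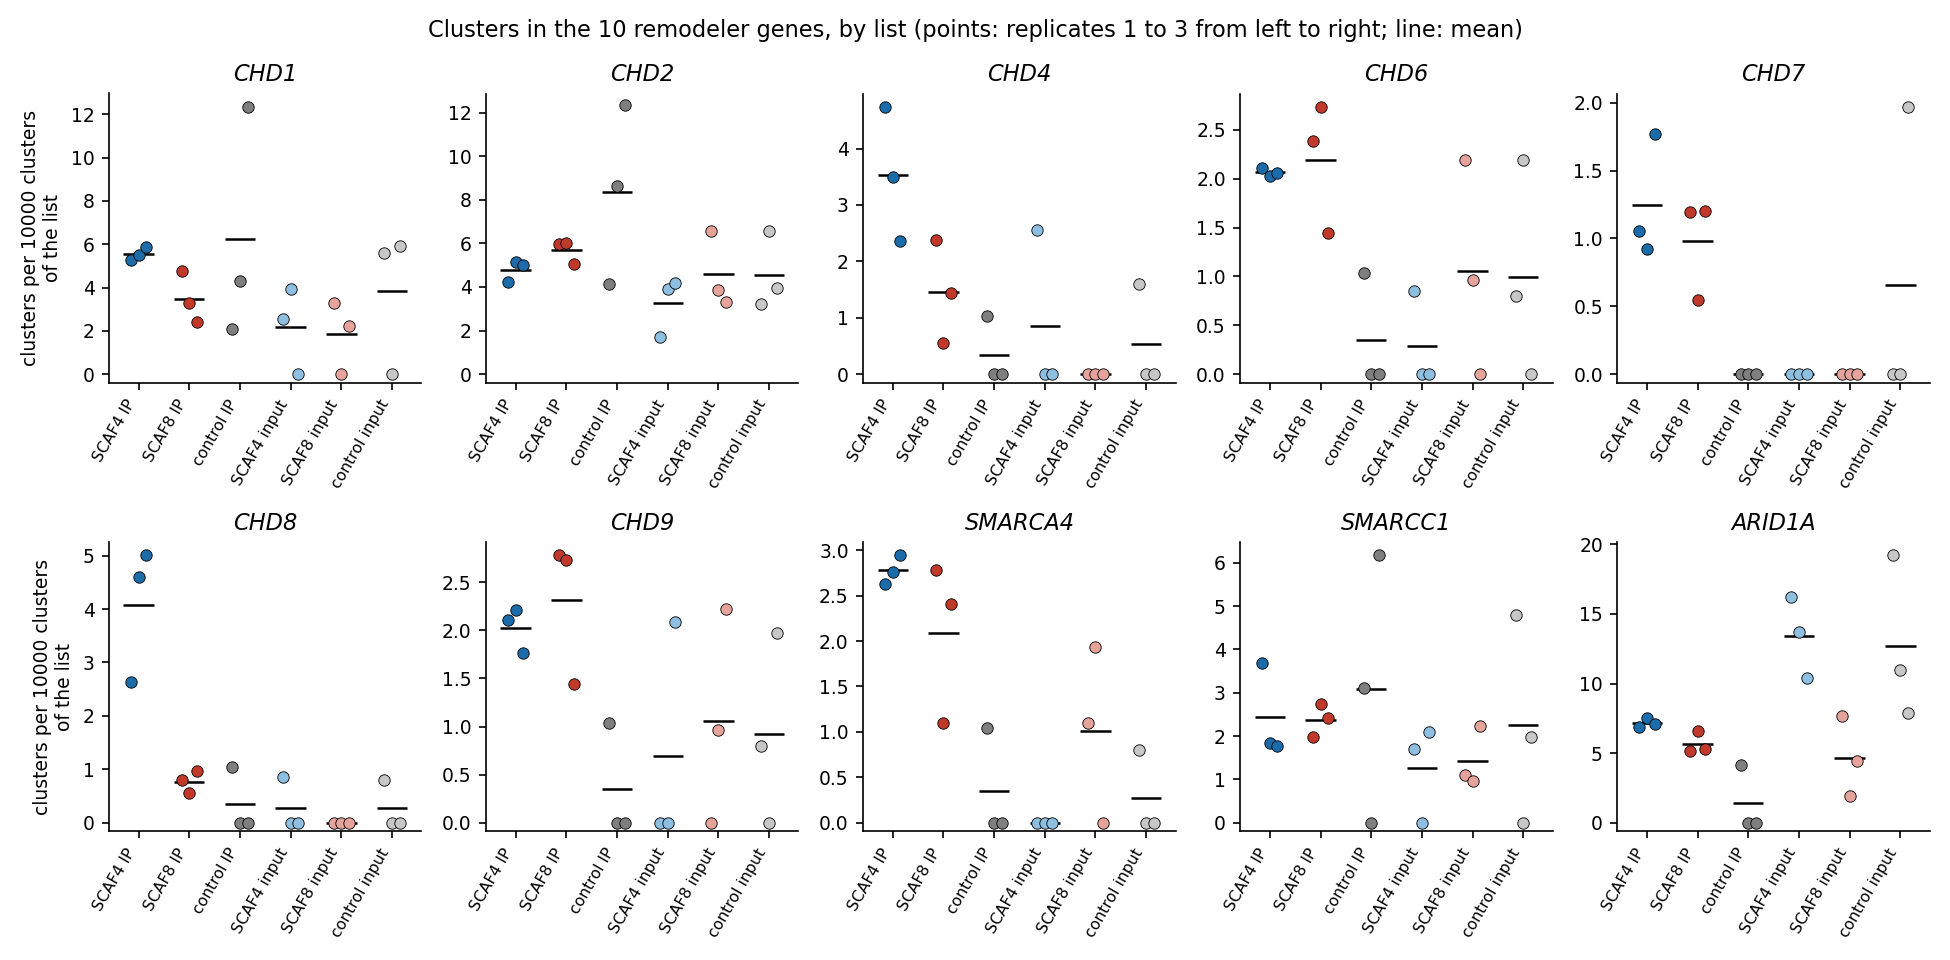
Clusters per 10000 clusters of the list in each of the 10 genes, with a point for each list, colored by group, and lines at the group means (3 lists each). CHD7 lies at 0 in all inputs of the tagged lines, CHD8 stands out in the SCAF4 IP alone, and the inputs of ARID1A reach 19.2.

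With each protein set against its own inputs, all 3 SCAF4 IP lists lay above all 3 SCAF4 inputs in 6 of the 10 genes (CHD1, CHD2, CHD6, CHD7, CHD8 and SMARCA4), compared with 28.5% of 5672 genes. The SCAF4 inputs held no cluster of CHD7 or SMARCA4, where 0 of 21622 allows up to 1.39 per 10000, a level above the SCAF4 IP mean of CHD7 (1.25) and below that of SMARCA4 (2.78). ARID1A alone lay below in all of its lists, with means of 7.15 ± 0.353 in the SCAF4 IP and 13.4 ± 2.90 in the SCAF4 input (n = 3 each), as did 13% of genes. For SCAF8, the IP lists lay above their inputs in CHD4, CHD7 and CHD8, or 3 of 10 genes, compared with 15.4% of 4850 genes, and no member lay below, compared with 15.2%. In these 3 genes the SCAF8 inputs held no cluster, and the SCAF8 IP mean exceeded the level that a count of 0 of 28515 allows (1.05 per 10000) in CHD4 alone, at 1.46. Without replicate 1, 2 or 3 the SCAF8 count was 7, 4 or 5 of 10 genes, compared with 26.9%, 28.6% and 25% of all genes tested in these settings. With 3 lists against 3 an exact test cannot go below p = 0.1, so these are counts without a test.

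The control IP, which pulls down whatever binds the FLAG beads without a tagged protein, was compared with the 6 SCAF IP lists. None of 7197 genes passed after adjustment (exact permutation test, smallest BH-adjusted p = 0.0755), and 2009 passed at an unadjusted p under 0.05, 5 members among them. These were CHD6, CHD7, CHD9, SMARCA4 and ARID1A, and in all 5 every SCAF IP list lay above every control IP list, as in 17.3% of all genes. CHD6, CHD9 and SMARCA4 had a single control IP cluster each, in replicate 1, and their control means were 0.346. In control IP replicates 2 and 3 a single cluster amounts to 4.32 and 6.17 per 10000. The SCAF IP means of these genes (2.13, 2.17 and 2.44) lay below both, so a 0 there cannot show a lower level. ARID1A had 4 clusters in control IP replicate 1 and none in replicates 2 and 3, giving means of 6.41 ± 0.970 in the SCAF IPs and 1.38 ± 2.40 in the control IP. CHD7 had none, but 0 of 13573 control IP clusters allows up to 2.21 per 10000, above its level of 1.11 in the SCAF IPs, so no difference was detectable at this list length.

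CHD1, CHD2 and SMARCC1 had higher means in the control IP than in the SCAF IPs, at 6.25 against 4.52, 8.38 against 5.23 and 3.09 against 2.40. The control values rested on 5, 8 and 4 clusters in all, and none of the differences passed (exact permutation test, unadjusted p = 0.524, 0.0833 and 0.595). Part of the CHD2 value lay in another gene. A region at chr15:92897749-92898068, within the CHD2 body but in an exon of the long noncoding RNA gene CHASERR, held clusters of all 6 SCAF IP lists, all 3 control IP lists and 8 of the 9 inputs, and without clusters that lay in exons of other genes but in none of its own the CHD2 difference between SCAF IP and control IP turned from −3.15 to 0.227 per 10000.

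CHD8 was the member that set SCAF4 and SCAF8 apart. It had 47 clusters in the SCAF4 IP and 7 in the SCAF8 IP, with means of 4.08 ± 1.27 and 0.768 ± 0.210 per 10000 (n = 3 each), a 5.31-fold ratio that placed it at percentile 97.6 of 6957 genes with clusters of both proteins. Next were CHD4 with a ratio of 2.42, whose lists overlapped between the proteins, and CHD1 with 1.59. In CHD1, CHD8 and ARID1A, 3 of 10 genes, every SCAF4 list lay above every SCAF8 list, compared with 9.82% of 7049 genes, and in none did every SCAF4 list lie below, compared with 6.5%. Without replicate 1 the first count was 5, compared with 31.9% of all genes tested in that setting. No test was made, because an exact test of 3 lists against 3 does not reach below p = 0.1.

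The remaining genes were close to even. SMARCA4, CHD7 and ARID1A had SCAF4 to SCAF8 ratios of 1.33, 1.27 and 1.26, SMARCC1 of 1.02, and CHD6, CHD9 and CHD2 of 0.943, 0.874 and 0.844. The median log2 ratio was 0.34 for the 10 members and 0.08 for all 6957 genes. CHD8 therefore differed from CHD7, CHD6 and CHD9, the other genes of its subfamily, whose ratios lay between 0.874 and 1.27.

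**Figure D2:**
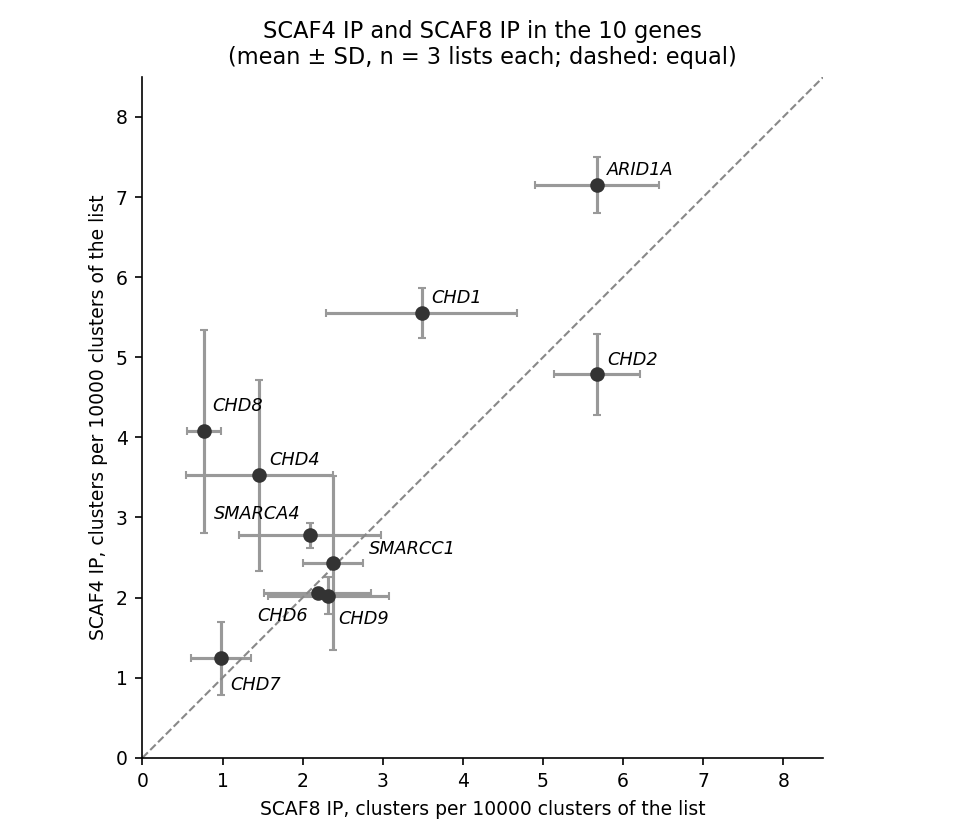
Mean clusters per 10000 in the SCAF4 IP against the SCAF8 IP for the 10 genes (3 lists each, error bars are SD), with a line of equal values. CHD8 lies far on the SCAF4 side (4.08 against 0.768), and CHD2, CHD6 and CHD9 lie slightly on the SCAF8 side.

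The CHD8 difference was spread along the transcript. SCAF4 clusters were found in 24 exons of CHD8, and SCAF8 clusters in only 4 of these, exons 4, 6, 23 and 33. Exon 4 held clusters of all 3 lists of both proteins and of 1 control IP list. Exons 2 and 20 held clusters of all 3 SCAF4 lists and no SCAF8 list. Among the regions of CHD8 seen in at least 2 IP lists, 11 of 15 were found with SCAF4 only and 4 with both proteins.

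In 9 of the 10 genes most IP clusters were exonic, ARID1A being the exception. In the 1 isoform used per gene, that with most exon bases, 451 IP clusters had their midpoint in an exon and 148 in an intron, although introns are far longer. This amounted to 5.06 IP clusters per kb of exon and 0.115 per kb of intron over the 6 lists, and to 0.483 and 0.0365 in the 6 inputs. These counts were not scaled to list length. The SCAF4 and SCAF8 IP lists held 107357 and 84978 clusters in all, and their inputs only 21622 and 28515. Of 350 exons, 152 held a cluster of at least 1 IP list, 68 of at least 3 and 15 of all 6. In the shorter input lists of the tagged lines, 23 exons held a cluster. Of 340 introns, 32 held an IP cluster.

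Per kb of exon and 10000 clusters of the list, the mean exonic level over the 6 IP lists was 0.430 ± 0.122 (SD) in CHD1, 0.411 ± 0.0329 in CHD2, 0.342 in ARID1A, 0.340 in CHD4, 0.326 in SMARCA4, 0.290 in SMARCC1 and 0.273 ± 0.216 in CHD8. CHD9, CHD6 and CHD7 had 0.166 ± 0.0401, 0.148 and 0.0959 ± 0.0345. Neighbors in this order overlapped between lists. CHD8 changed its place with the protein, at 0.456 ± 0.128 in the SCAF4 IP, above SMARCA4, and at 0.0907 ± 0.0248 in the SCAF8 IP, near CHD7 (0.0845). RNA levels of the genes were not measured in these lists, and their part in the order was not tested. CHD7 and CHD9 held no IP cluster in any intron, with 22 of 22 and 40 of 40 in exons, and CHD8 had 51 of 54 in exons. ARID1A was the opposite, with 52 of 125 in exons.

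**Figure D3:**
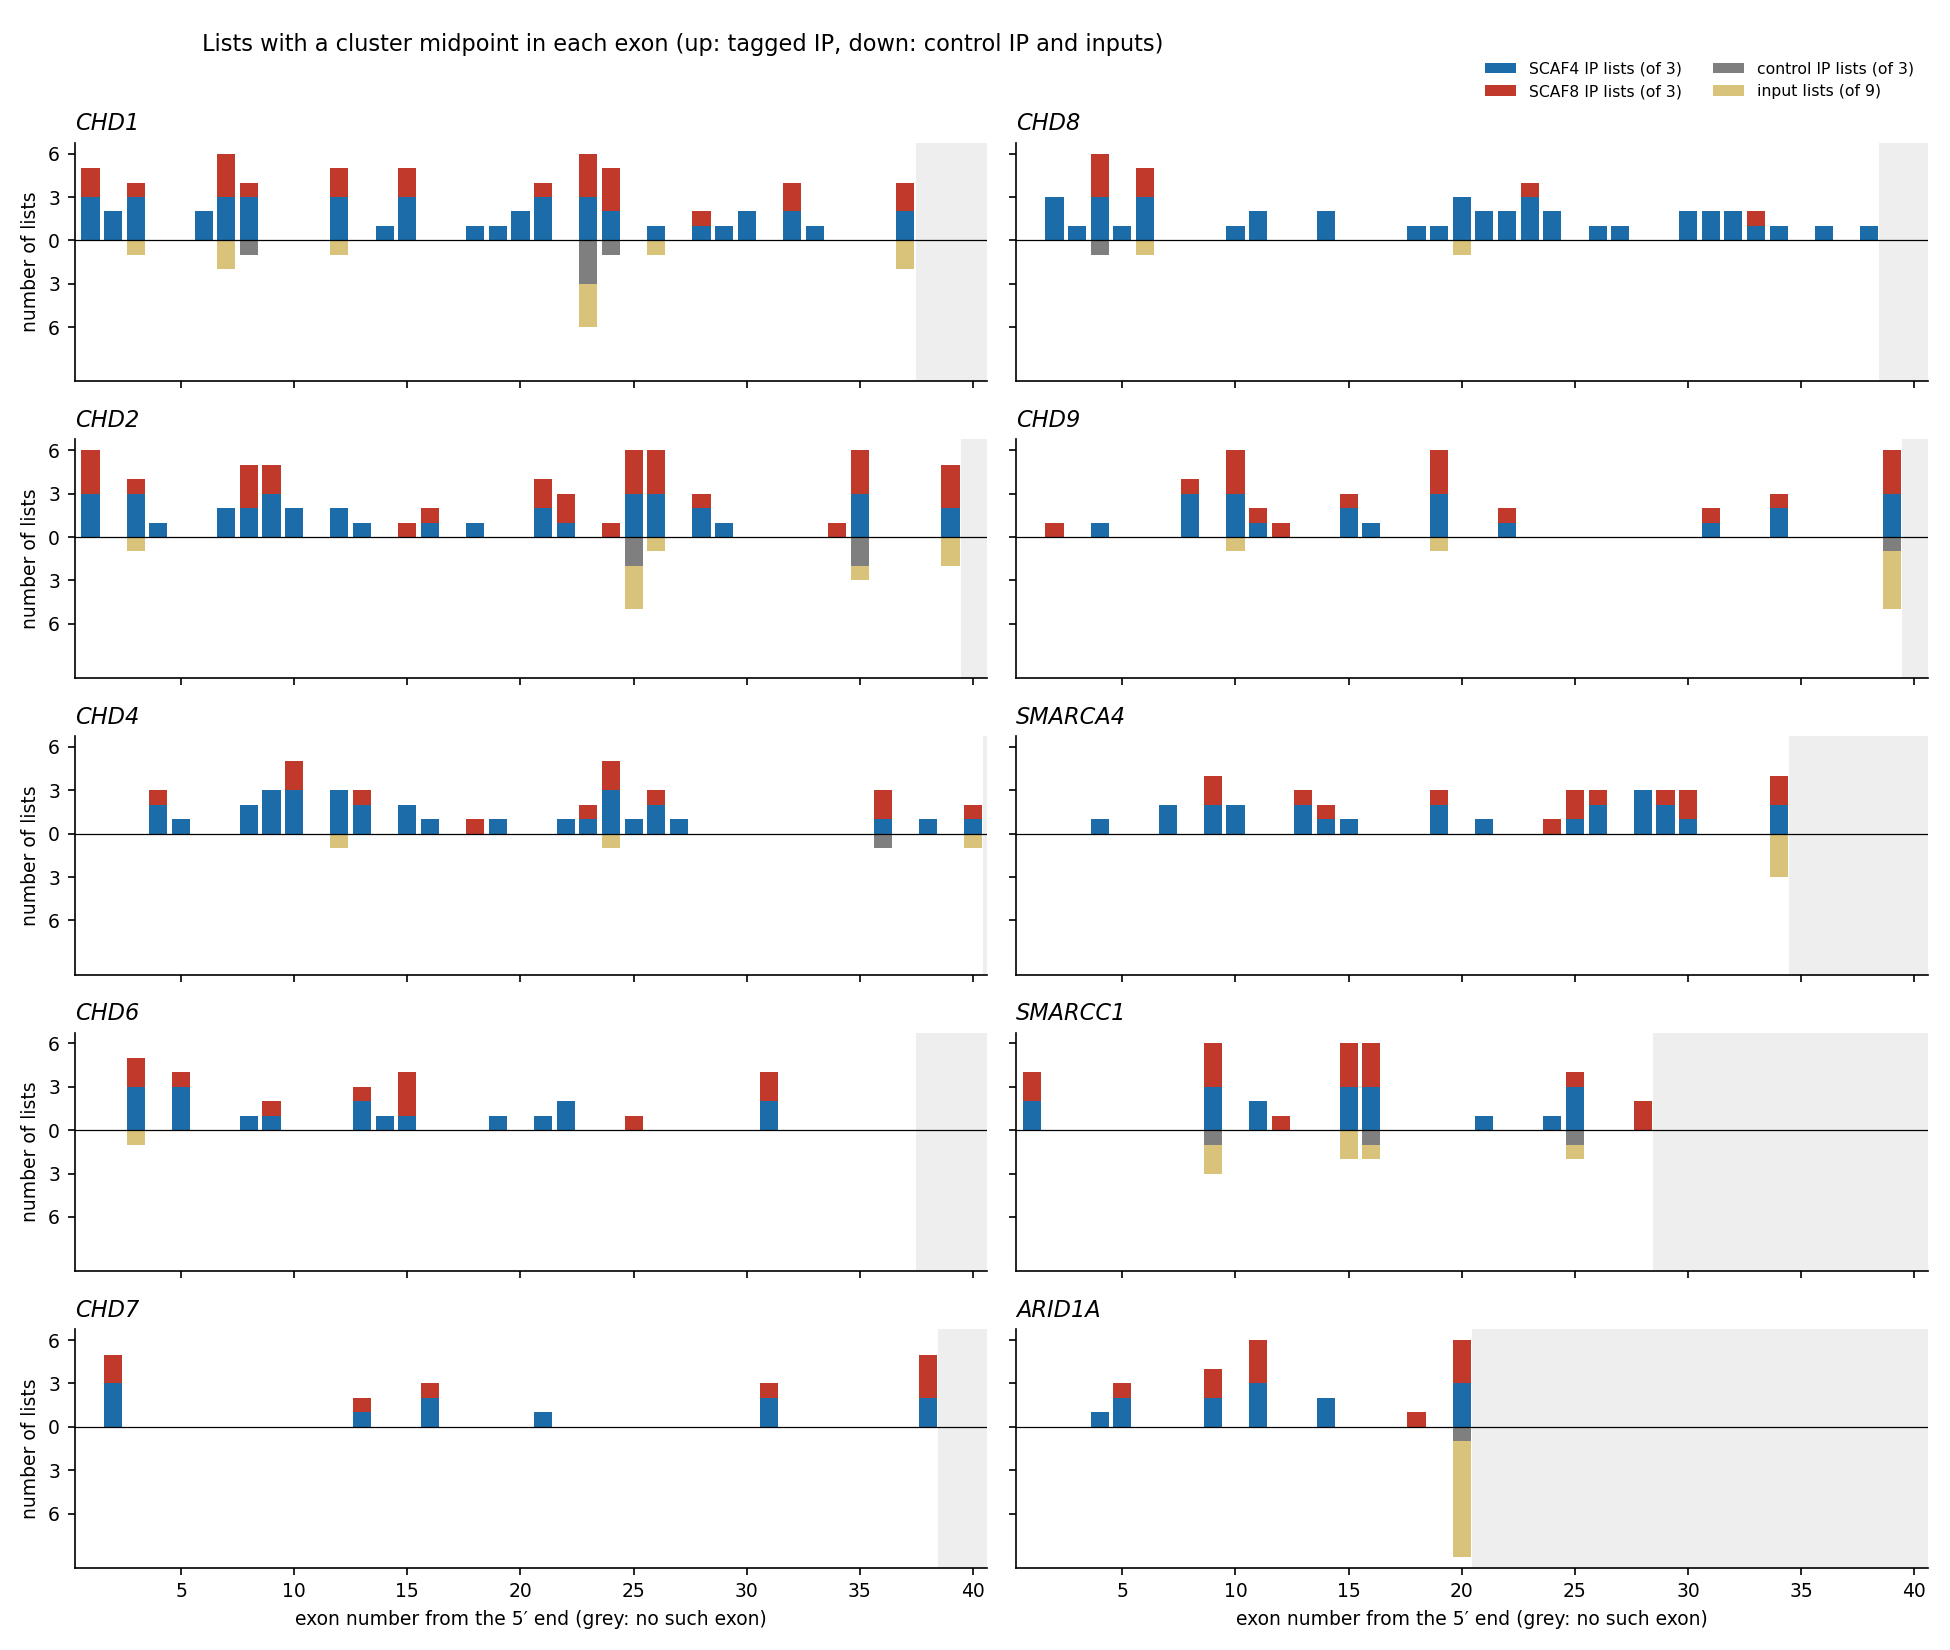
Number of lists with a cluster midpoint in each exon of the 10 genes, with exons numbered from the 5′ end on the x axis and lists on the y axis. Bars above the line stack SCAF4 IP and SCAF8 IP lists (3 each) and bars below it control IP (3) and input lists (9). Of 350 exons, 152 have a bar above the line and 15 reach all 6 lists, and CHD8 is mostly hit by SCAF4 alone.

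The 15 exons present in all 6 IP lists were not shared evenly. CHD2 had 4 (exons 1, 25, 26 and 35), CHD9 3 (exons 10, 19 and 39), SMARCC1 3 (exons 9, 15 and 16), CHD1 2 (exons 7 and 23), ARID1A 2 (exons 11 and 20) and CHD8 1 (exon 4). Exon 1 of CHD2 and exon 11 of ARID1A, whose sequence is given above, were the only 2 without a cluster in any control IP or input list. Exon 23 of CHD1, of 177 bases, was found in all 3 control IP lists and 3 inputs as well, and the last exon of ARID1A in 8 of 9 inputs.

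Regions with their midpoint in an inner exon mostly covered the larger part of that exon. Of 92 regions at inner exons seen in at least 2 IP lists, the median region covered 94.9% of its exon, 69 covered at least 80% and 21 covered all of it. In 73 the region reached into an intron, by a median of 12 nt over all 92, 54 had at most 20 nt outside, and 19 had more than 50 nt, with a maximum of 151 nt. Both median region length (168.5 nt) and median exon length (177 nt) were near the median lengths of single clusters given above. With such similar lengths, a midpoint inside the exon by itself makes a high cover likely. The 91 inner exons found in 2 to 6 IP lists had a median length of 177 nt, the 49 found in 1 list 150 nt, and the 190 found in none 132 nt. A longer exon has more room for a midpoint, and the part of this in the lengths was not tested. Their median GC contents were close, at 47%, 46.6% and 45.5%.

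Regions were then filtered after the authors' methods, by removing those found in more than 1 of the 9 inputs, those in genes with at least 1 input region per 10 kb, and those that overlapped a control IP cluster. Of 256 merged regions in the 10 genes, 140 were seen in at least 2 IP lists. Overlap with inputs removed 24, input density 43 and the control IP 4, which left 69 consensus regions in 7 of 10 genes, compared with 53.3% of 9709 protein-coding genes that kept at least 1. CHD2 kept 15, CHD8 14, SMARCA4 12, CHD6 10, CHD9 9, CHD7 6 and SMARCC1 3. By number of regions, CHD2 ranked 42, CHD8 48 and SMARCA4 76 among the 9709 genes, an order in which long transcripts have more room. CHD1, CHD4 and ARID1A kept none, as their input densities of 1.65, 1.03 and 3.77 regions per 10 kb put the whole gene over the limit. CHD4 was just past it, and CHD2 with 0.686 was the nearest below. These zeros depended on the setting. Without the density step, 108 regions remained, among them 15 of CHD1, 13 of CHD4 and 11 of ARID1A, without replicate 1 CHD1 kept 18 and CHD4 9, and among clusters not below the median score CHD4 kept 7. With 3 lists required there were 36 in all, and without replicate 2 or 3 there were 40 and 39. The counts of single genes moved as well. CHD8 fell from 14 to 3 without replicate 2, 4 without replicate 3 and 3 with 3 lists required. CHD7 dropped to 2 without replicate 3, CHD9 to 2 at or above the median score, and SMARCA4 to 7 or 6 without replicate 2 or 3.

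Of the 69 regions, 62 lay at exons, in 60 different exons. Both proteins contributed to 46 (66.7%), SCAF4 alone to 20 (29%) and SCAF8 alone to 3 (4.35%), compared with 69%, 24.7% and 6.35% of 14846 consensus regions in all protein-coding genes (a region in several genes counted for each). CHD8 had 11 of its 14 regions from SCAF4 alone and CHD7 and CHD9 had all 6 and all 9 from both proteins. The CHD8 count rests largely on replicates 2 and 3 and the CHD7 count on replicate 3, as given above. With 2 of 3 replicates required for each protein separately, SCAF4 had 51 regions in the members and SCAF8 22, although without replicate 2 or 3 SCAF4 had 15 and 21, and without replicate 3 SCAF8 had 10. In CHD8 these numbers were 13 and 1.

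Of the 140 regions seen in at least 2 IP lists, 106 had their midpoint in an exon, but in ARID1A only 6 of 21. Some of the regions outside exons lay in every kind of list. A region in intron 5 of SMARCC1 was found in all 6 SCAF IP lists, 1 control IP list and 4 inputs. A region in intron 29 of SMARCA4, chr19:11049992-11050281, was found in 4 IP lists and 1 input. Its midpoint lay in no exon of any isoform annotated on that strand in GENCODE 44.

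ARID1A showed a different pattern within a single gene. Its inner exons held 11 SCAF4 IP and 7 SCAF8 IP clusters and none of the control IP or of the 9 inputs. Its first intron, of 32110 bases, held clusters of 6 SCAF IP lists, 1 control IP list and all 9 inputs, with 41 clusters in the SCAF4 IP, 22 in the SCAF8 IP, 26 in the SCAF4 input, 6 in the SCAF8 input and 28 in the control input. Relative to list length this intron was highest in the SCAF4 and control inputs, with 10.8 ± 4.2 and 10.9 ± 4.46 clusters per 10000 (SD, n = 3 each), and lower in the SCAF4 IP, SCAF8 IP and SCAF8 input, with 3.45 ± 1.16, 2.54 ± 0.311 and 2.16 ± 1.16. The lowest of the SCAF4 and control inputs (6.26) lay above the highest of the SCAF IP lists (4.78). The last exon had 2.11 and 1.92 in the SCAF4 and SCAF8 IP and 2.61, 2.16 and 1.80 in the 3 inputs, values that overlapped. The lower mean of ARID1A in the SCAF4 IP than in the SCAF4 input was therefore located in intron 1. For SCAF8 the mean of the whole gene was not lower in the IP, at 5.675 ± 0.772 against 4.675 ± 2.87 in the input. Inner exons of ARID1A were covered in SCAF IPs only, at counts too low to compare with the short control IP lists.

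**Figure D4:**
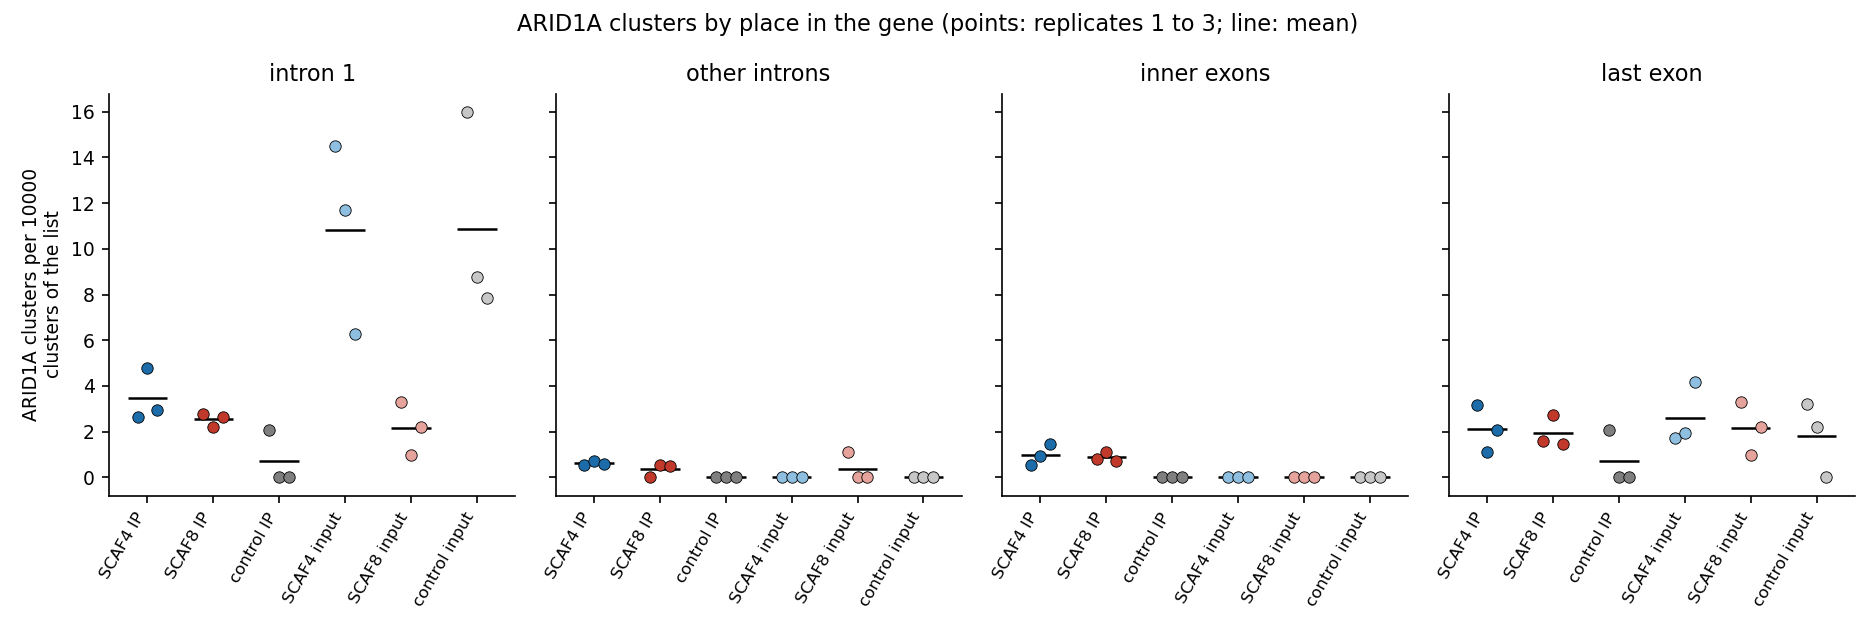
Clusters of ARID1A per 10000 clusters of the list in intron 1, other introns, inner exons and the last exon, for the 6 groups on the x axis (points are lists, lines are means over 3 lists). Inner exons are at 0 in the control IP and all inputs, and intron 1 reaches 16 in the control input.

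Member clusters lay in exons more often in the SCAF IPs than in their matching inputs, with no overlap between the lists. Over the 6 SCAF IP lists, 75.1% ± 4.75 of the member clusters were exonic, and over the 6 inputs of the same lines 47.4% ± 11.6, whereas for all protein-coding genes the shares were 65.4% ± 3.91 and 64.7% ± 4.51. For the members the lowest IP list stood at 69.7% and the highest input at 61.5%. In the control IP the member share was 69.3% ± 9.71 (lists from 61.1% to 80%), which overlapped the SCAF IPs, and that of all protein-coding genes 71.4% ± 8.37. ARID1A had the lowest share. Without it, the other 9 genes had 82.7% ± 4.6 in the IPs and 62.6% ± 8.90 in the inputs, the latter close to all protein-coding genes, and the lists met at 75% in the highest input and 74.6% in the lowest IP. The input shares rest on 95 member clusters, or 51 without ARID1A.

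**Figure D5:**
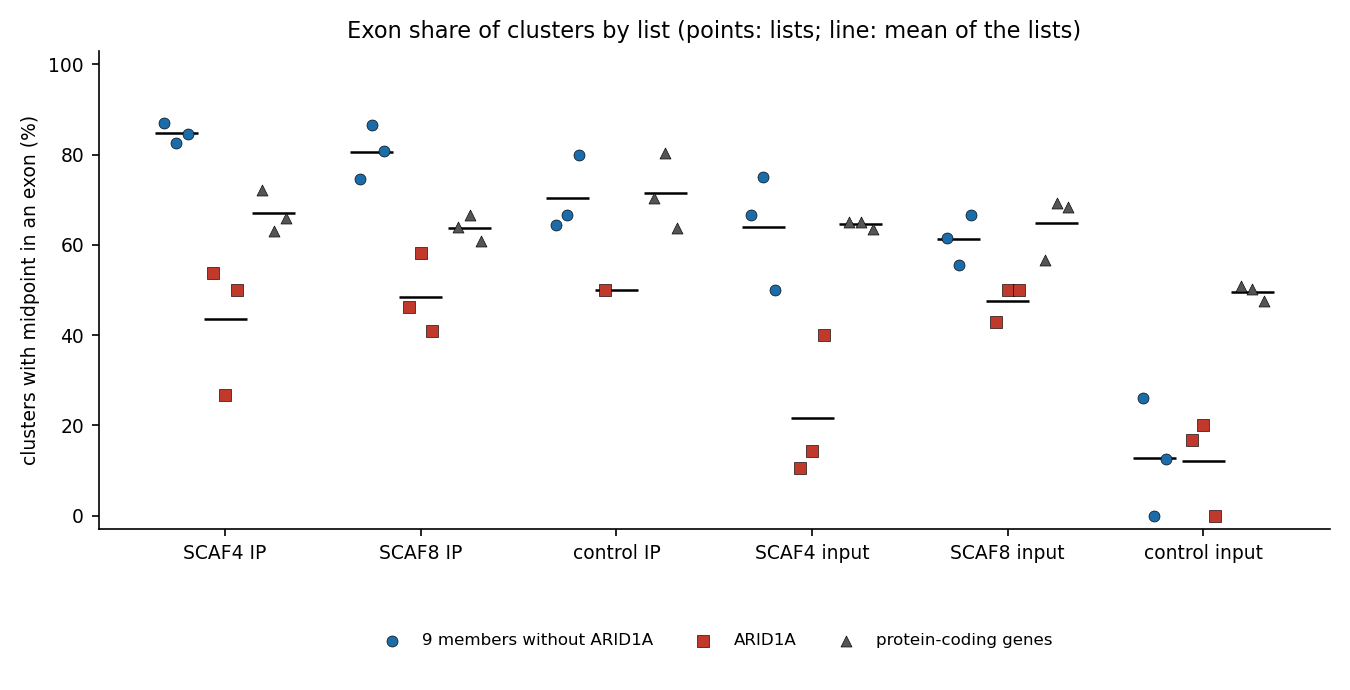
Percent of clusters with the midpoint in an exon, per list, for the 9 genes without ARID1A, ARID1A and all protein-coding genes in the 6 groups on the x axis (points are lists, lines are means). The 9 genes lie above all protein-coding genes in the SCAF IPs (82.7% against 65.4%), near them in the inputs of the tagged lines (62.6% against 64.7%) and below them in the control input (12.9% against 49.6%).

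The bases under the consensus regions were compared with those of other genes, in a window of 100 nt at the midpoint of each region on the transcribed strand. CGG or CGA was present in 46 of the 69 member regions (66.7%), in 71.7% of 14119 distinct consensus regions of all protein-coding genes and in 55.7% of 11449 regions found in at least 2 inputs. At least 1 of CCAGC or CCAGG and their variants GCAGC or GCAGG was present in 18 (26.1%), compared with 44.3% and 34.8%, and CTCC or CACC in 31 (44.9%), compared with 48.3% and 40.7%. Matches of different motifs may overlap, and no test was made. The genes differed among themselves. All 12 regions of SMARCA4 held CGG or CGA, at a median GC content of 59%, as does the SMARCA4 sequence shown above, while among the 10 regions of CHD6, at 44% GC, 3 held it and none held the CCAGC group. The median GC content was 46% in the member regions, 49% in all consensus regions and 45% in input regions, and the median T content, which limits where 4SU can be incorporated, was 23%, 23% and 27%.

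Other chromatin remodelers were examined in the same way, from a list of 67 genes of the same and related complexes. Of these, 50 had enough clusters to be tested between IP and input. After adjustment 12 were higher in the IPs, as were 8.09% of all genes, and 1 was lower, as were 6.38%, and 39 of the 67 held 188 consensus regions, where 53.3% of protein-coding genes with an IP cluster held at least 1. The counts by family are small and are given as counts. Of the 25 other BAF and PBAF subunits, 14 were tested and 2 were higher, SMARCC2 and SMARCE1. SMARCC2, the paralog of SMARCC1, had 1.23 clusters per 10000 in the IPs and none in the inputs (exact permutation test, BH-adjusted p = 0.0204) and kept 9 consensus regions, as did the core subunit SMARCB1 and the PBAF subunit BRD7. Neither CHD3 nor CHD1L passed, and they kept 6 and 5 regions.

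Among the other families, 3 of 8 tested ISWI genes were higher in the IPs, with SMARCA5, the ISWI ATPase SNF2H, at 1.22 and 0.161 per 10000 (exact permutation test, BH-adjusted p = 0.0449). Of the INO80, SRCAP and EP400 complexes, 2 of 7 were higher, namely the ATPases EP400 and SRCAP. EP400 kept 17 regions, the most in the list after the filters, of which the density step left 14 of the 67 genes with none. SRCAP and BRD9 were among these 14, with 40 and 47 regions before any removal, compared with 22 for EP400. Of other SNF2 ATPases, 4 of 8 were higher, including BTAF1, which removes TBP from promoters, at 3.56 and 1.04 (exact permutation test, BH-adjusted p = 0.0204). Of the other NuRD subunits, 1 of 11 was higher and 1 was lower. The higher was MTA1, at 8.8 in the IPs and 5.15 in the inputs (exact permutation test, BH-adjusted p = 0.0204). The lower was GATAD2B, a scaffold of NuRD, at 1.81 in the IPs and 3.74 in the inputs (exact permutation test, BH-adjusted p = 0.0449).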

How the data were processed

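PAR-CLIP clusters of 36 samples (Flp-In T-REx HEK293, human) were analyzed as 18 lists, each holding 1 replicate of an IP or input with soluble and chromatin reads combined by the authors. The study's methods name PARalyzer for the clusters and another doxycycline dose than the labels, given to the parental line as well. The submitters' processing notes list bcl2fastq 1.8, cutadapt, Trim Galore, Bowtie2 2.2.9, Picard and GRCh38. The deposited score of each cluster is unnamed and served to set a higher limit in an alternative. Without reads, depth is unknown.

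BED positions were read as counted from 0 and are printed counted from 1; all clusters lay within GRCh38 chromosome lengths. Midpoints were assigned to GENCODE 44 genes on the same strand, and a midpoint in several genes counted for each. Exons came from 1 isoform per gene, the one with most exon bases. Genes with at least 6 clusters in the lists compared were tested by exact permutation of lists and Benjamini-Hochberg adjustment, called at 0.05. Clusters overlapping by at least 1 nt were merged, and consensus regions needed at least 2 lists. The study does not say how density was counted; here it counted merged input regions in the gene and 2 kb on each side. IP and input of the same number come from the same extract. Deviations from group means correlated at a median of 0.22 between IP and input of the same number, and −0.156 between different numbers. SciPy 1.17.1 under Python 3.11.15 gave the statistics, with pandas 2.3.3 and NumPy 2.4.6 for tables, samtools 1.23.1 and pysam 0.24.0 for sequence and Matplotlib 3.10.9 for plots. Tests were checked on simulated data.

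The genes, the remodeler list and the tests were chosen with earlier results of these data known. All 10 genes are named. Of the other remodelers, only some of those called or with most consensus regions per family are named. Alternatives were a higher score limit, other filters, a log2 scale, a replicate block and leaving out each replicate.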

Additional observations from a re-analysis of the deposited data

Results flagged for a closer look

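SMARCA4 had 1.09 clusters per 10000 in replicate 2 of the SCAF8 IP, away from the other 5 SCAF IP lists, which lay between 2.41 and 2.94. CHD4 had 2.56 in replicate 1 of the SCAF4 input and 0 in the other 5 inputs of the tagged lines. CHD8 had 0.854 in the same input list and 0 in the other 5. These lists were noted because the gap to the nearest other list, divided by the range, passed Dixon's 95% limit. That limit marks about 1 in 20 groups by chance where values are normally distributed. For CHD4 and CHD8 the other 5 lists were at 0, so any value above 0 would have been marked. The value of CHD4 rests on 3 clusters and that of CHD8 on 1.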

How the results depend on the processing

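Of the 3 members higher in the IPs than in the inputs, none passed with the better-scoring clusters only (those not below the list's median score), on the log2 scale with a pseudocount of 0.5 clusters, with a replicate block that pairs IP and input of an extract, or without any 1 replicate (0 in each case), and only CHD7 (1) passed where all genes with at least 1 cluster were tested. The block and the fits on 4 against 4 lists allow no p below 0.03125 and 0.0286. At or above the median score none of 5128 genes passed (exact permutation test, smallest BH-adjusted p = 0.0563). On the log2 scale 88 of 7525 genes were higher in the IPs and 671 lower. Among all 12624 genes with at least 1 cluster, 453 were higher. Members with every SCAF4 list above every SCAF8 list numbered 3 to 5 without 1 replicate (5 without replicate 1), and those with every SCAF8 IP above its inputs, 3 with all lists, 4 to 7 (7 without replicate 1, 5 without replicate 3). Over all genes in these settings the shares were 18.7% to 31.9% and 25% to 28.6%, compared with 9.82% and 15.4% with all lists. The 69 consensus regions became 36 with 3 lists required, 108 without the density step and 39 to 89 without 1 replicate (40 without replicate 2, 39 without replicate 3). The 51 SCAF4 regions became 14, 83 and 15 to 70 under these settings (15 without replicate 2, 21 without replicate 3) and 24 at or above the median score, and the 22 SCAF8 regions 7 with 3 lists required and 10 to 18 without 1 replicate (10 without replicate 3).

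The IP minus input difference of CHD9 turned to −0.264 per 10000 at or above the median score. Against the control IP, differences turned at or above the median score for CHD1 (0.365), CHD2 (5.34) and SMARCC1 (1.66), on the log2 scale for CHD7 (−0.27) and CHD8 (−0.13), without replicate 3 for CHD1 (1.51, range without 1 replicate −4.06 to 1.51) and SMARCC1 (1.00, range −2.18 to 1.00), and, in a setting added after the data were seen, without clusters that lay in another gene's exon and in none of the gene's own, for CHD2 (0.227). That setting removed no cluster of CHD4, whose exons are shared with a readthrough gene. None of these comparisons with the control IP was past the threshold, and the causes were not tested. Another 60 counts and shares and 171 values of single genes kept their direction and side of the threshold, and 20 calls of single genes against the input were lost.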

Other observations

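Clusters of the control input lay in different places from those of the other inputs. In the 10 genes 13.6% ± 6.81 of its clusters were in exons (SD, n = 3 lists), compared with 47.4% ± 11.6 in the inputs of the tagged lines, and for all protein-coding genes the shares were 49.6% and 64.7%. In CHD1, 0 of 10 control input clusters and 10 of 10 clusters of the other inputs were in exons. The parental line holds no tagged gene, the sources differ on whether it received doxycycline, and the part of either in this difference was not tested.

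No list held a cluster on the strand opposite to any of the 10 genes within their bodies, 0 in each of 18 lists.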
